A study of Mus musculus with 9 samples.

Results

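Transcript levels of the insulin-like growth factor (IGF) binding proteins Igfbp2, Igfbp3, Igfbp4, Igfbp5, Igfbp6 and Igfbp7, the ligands Igf1 and Igf2, and the receptors Igf1r and Igf2r were examined in meningeal lymphatic endothelial cells (MLECs), the cells that line the lymphatic vessels of the dura mater around the brain. These 10 genes, of 24321 listed, are the rows of the expression table that carry their symbols. The set was selected on the high FPKM of Igfbp3 in the tumor columns, and the other 9 genes were taken as its family, ligands and receptors. The levels of Igfbp3 in tumor-associated and control MLECs are therefore given as a description, without a test.

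MLECs came from the meninges of male mice labelled as 10 weeks of age, which the study describes as C57BL/6. Per the labels, the mice were injected through the cisterna magna at 7 to 8 weeks of age with 5 µL of PBS alone (control), with 100000 GL261 cells, a mouse glioma line, or with 100000 B16 cells, a mouse melanoma line, and cells were taken about 3 weeks (GL261) or 2 weeks (B16) later. The study's methods describe an injection under the dura with fewer cells, so the route and dose behind the libraries are not settled by the sources. By the labels, tumor type and the time of collection cannot be told apart, and no time is labelled for the PBS mice. The study's results text gives 2 weeks for GL261, B16 and PBS alike, and its methods 2 to 3 weeks. The times are thus not settled by the sources either. Each group held 3 RNA-seq libraries, and each library was made from 10 cells sorted out of the pooled meninges of 6 mice, per the labels for CD31 and LYVE-1 and against CD45. The study's results text names podoplanin (PDPN) in place of LYVE-1, and which gate was used is not settled by the sources. The replicates are thus separate pools of animals, but each stands on few cells.

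IGFs signal through IGF1R, a receptor tyrosine kinase that drives growth and survival, while IGF2R has no such kinase and carries IGF2 to the lysosome for breakdown. The binding proteins hold IGFs in the extracellular space, lengthen their life and limit or deliver them to the receptor, and proteases that cut the binding proteins free the ligand again. Several of the binding proteins also act without IGFs. IGFBP7, which binds IGFs only weakly, is a matrix protein of blood vessel walls, and IGFBP3, the main carrier of IGFs in blood, is made by many endothelia.

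The binding proteins changed places in tumor-associated MLECs. Igfbp5 rose by 3.95 and Igfbp7 by 2.40 on the log2(FPKM + 1) scale, Igfbp3 went from below 1 FPKM to at least 1501 FPKM, and Igfbp4, the second most abundant binding protein of control MLECs, was lower in each of the 6 tumor libraries than in each of the 3 control libraries. At the receptors, Igf1r was lower and Igf2r higher in every tumor library than in every control library, although the difference of Igf1r did not pass the test across all genes and Igf2r is only described. The calls of Igfbp5 and Igfbp7 were lost with the number of genes detected per library as a covariate (limma adjusted p = 0.321 for Igfbp5 and 0.157 for Igfbp7), and the summed lymphatic markers were lower and the blood endothelial ones higher in the same tumor libraries. The ligands Igf1 and Igf2 were low and uneven in all groups. No gene of the set passed the test between GL261 and B16 libraries.

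The values are FPKM (fragments per kilobase of transcript, scaled to the mapped fragments of the library), deposited without read counts. The counting error of single values therefore cannot be estimated, and a gene without a value above 0 is called listed at 0. Between 7303 and 8688 genes had an FPKM above 0 in control libraries and between 8736 and 10852 in tumor libraries, each tumor library holding more than each control library. The study also lists fewer aligned reads for each control library than for each tumor library, so detection, depth and tumor status cannot be told apart by design. Differences were taken as log2(FPKM + 1), a scale that understates changes at low FPKM, and were tested with limma on the 9955 genes that reached 1 FPKM in 3 or more libraries, and p-values were adjusted over all of them by the method of Benjamini and Hochberg. Over all these genes the median of tumor-associated minus control MLECs was 0.20. It was 0.05 after the values were rescaled to an equal sum per library and 0.03 after quantile normalization. In bulk RNA, fewer cells of a type and less RNA per cell cannot be told apart.

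Of the 9 genes other than Igfbp3, 7 passed the filter on low values, while Igfbp2 and Igf1 did not. Igf2r, like Igfbp3, reached 1 FPKM in the 6 tumor libraries alone, so its entry into the test already required a difference, and it is left out of the counts here and given as a description. Of the 6 others, 2 were called in tumor-associated against control MLECs (Igfbp5 and Igfbp7, both higher), where limma called 3.93% of all genes tested (2.90% higher and 1.02% lower). The groups did not overlap for 4 of the 6, namely Igfbp5 and Igfbp7 above the controls and Igfbp4 and Igf1r below them, against 10.5% of all genes tested. The shares of all genes tested also include genes that, like Igf2r, passed the filter through 1 side alone. The median difference of the 6 was -1.003, with members far apart in both directions. This median leaves out Igfbp3 and Igf2r, which were both higher in the tumor libraries, so its sign depends on their exclusion.

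**Figure D1:**
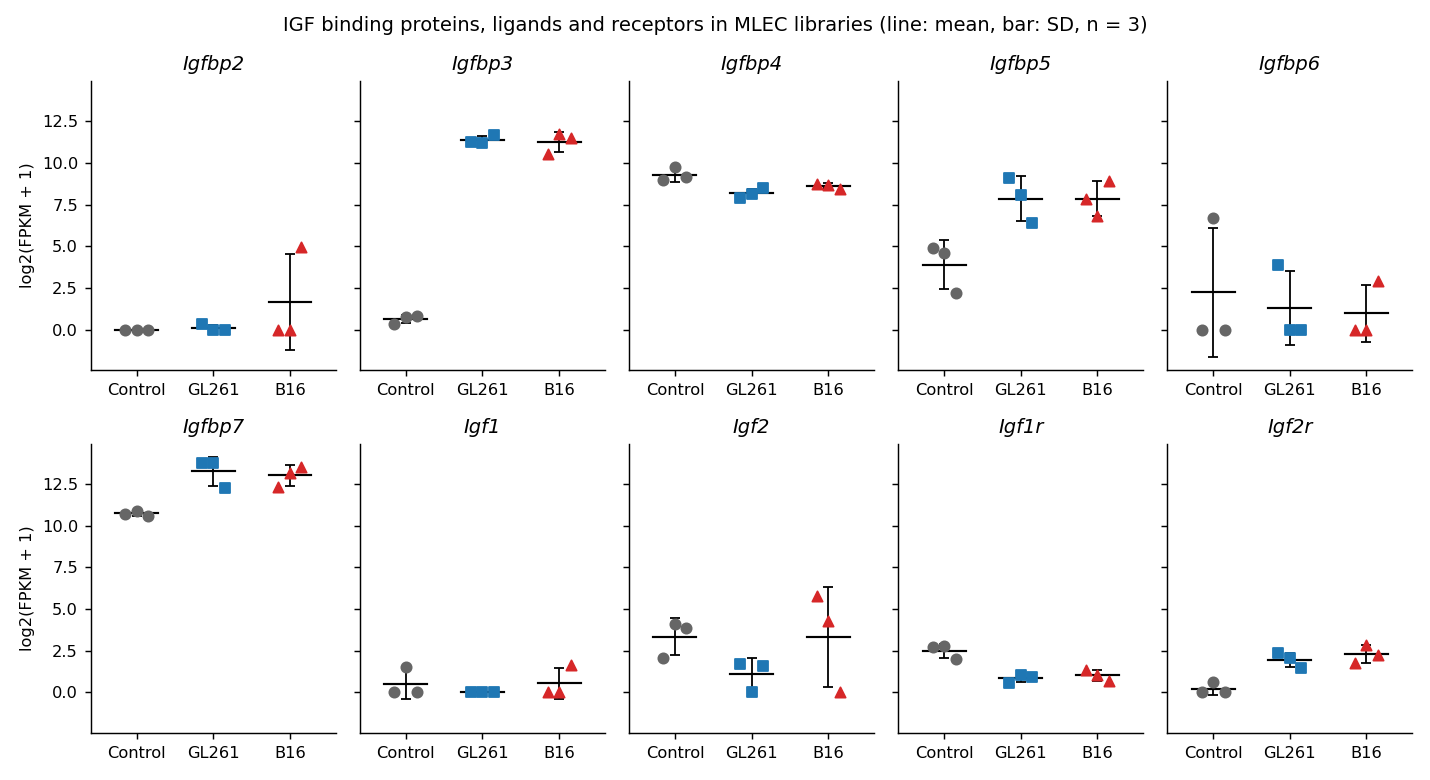
Level of each of the 10 genes as log2(FPKM + 1) in the 3 control (grey circles), 3 GL261 (blue squares) and 3 B16 (red triangles) libraries, with the mean as a line and the SD as a bar (n = 3). Igfbp3, Igfbp5, Igfbp7 and Igf2r lay higher in all 6 tumor libraries, Igfbp4 and Igf1r lay lower, and Igfbp2, Igfbp6 and Igf1 were listed at 0 in most libraries.

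In mm9, the build of the files, with the GENCODE M1 annotation, 2 pairs of binding protein genes lie next to each other. Igfbp3 (chr11:7106089-7113926, minus strand) stands 3539 bp from Igfbp1 (chr11:7097785-7102549, plus strand), and Igfbp5 (chr1:72904506-72921458, minus strand) stands 5457 bp from Igfbp2 (chr1:72871077-72899048, plus strand). The neighbours were listed at 0 in most libraries. Igfbp1 was listed at 0 in all control libraries, in GL261 replicates 1 and 3 and in B16 replicate 2, and reached 0.295 FPKM in GL261 replicate 2 and 7.24 and 6.00 FPKM in B16 replicates 1 and 3. The remaining members lie apart, Igfbp4 at chr11:98902558-98913969, Igfbp7 at chr5:77778265-77837070, Igfbp6 at chr15:101974793-101979942, Igf1 at chr10:87321010-87399792, Igf2 at chr7:149836673-149852721, Igf1r at chr7:75097713-75371484 and Igf2r at chr17:12875272-12962530.

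The promoters of the 3 binding proteins that were higher in tumor libraries, and of Igfbp4, which was lower, are printed here since these 4 genes carry most of the pattern. All 10 genes matched the promoter table of RefSeq (GRCm38.p6, which is not the build of the files), and the 250 bases before the transcription start are shown, 5′ to 3′ on the strand of the gene. Capitals mark matches on either strand to TATAAA, or to its variant TATATA (both read as a TATA box), and to GGGCGG (a GC box, the site of Sp1-type factors), 2 motifs whose matches do not overlap here.
Igfbp3 (chr11:7213924-7214173, minus strand): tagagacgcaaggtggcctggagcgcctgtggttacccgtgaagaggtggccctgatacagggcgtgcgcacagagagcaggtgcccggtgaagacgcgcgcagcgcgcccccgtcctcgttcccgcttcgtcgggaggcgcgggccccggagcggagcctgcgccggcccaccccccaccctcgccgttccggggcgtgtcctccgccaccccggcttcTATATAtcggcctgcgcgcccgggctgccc
Igfbp5 (chr1:72874866-72875115, minus strand): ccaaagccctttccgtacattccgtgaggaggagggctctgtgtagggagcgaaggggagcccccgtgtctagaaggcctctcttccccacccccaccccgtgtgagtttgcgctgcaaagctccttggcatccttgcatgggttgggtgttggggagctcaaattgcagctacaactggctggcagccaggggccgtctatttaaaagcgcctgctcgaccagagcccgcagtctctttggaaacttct
Igfbp7 (chr5:77408046-77408295, minus strand): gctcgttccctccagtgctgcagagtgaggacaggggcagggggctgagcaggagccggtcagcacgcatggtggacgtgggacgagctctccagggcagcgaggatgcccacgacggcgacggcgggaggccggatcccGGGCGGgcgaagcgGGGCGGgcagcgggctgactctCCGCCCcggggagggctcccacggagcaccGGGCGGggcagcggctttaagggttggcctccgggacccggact
Igfbp4 (chr11:99040994-99041243, plus strand): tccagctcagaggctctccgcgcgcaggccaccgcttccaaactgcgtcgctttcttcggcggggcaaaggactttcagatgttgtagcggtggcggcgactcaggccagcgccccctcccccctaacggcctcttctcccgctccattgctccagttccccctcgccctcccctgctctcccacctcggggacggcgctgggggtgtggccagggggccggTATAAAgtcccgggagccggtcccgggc

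The promoters did not share one form. The Igfbp3 promoter was 73.2% GC with a TATATA at bases -30 to -25 from the start and no GC box, and the Igfbp4 promoter, of the gene that was lower, was alike in this with a TATAAA at -28 to -23 and 69.2% GC. The Igfbp7 promoter held 4 GC boxes between bases -110 and -39 and no TATA box, at 74% GC. The Igfbp5 promoter held neither motif and was 58.8% GC. Of all 32851 promoters of the same length in the table, 15.6% held such a TATA box and 32.7% a GC box, and the median GC content was 52.4%.

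Igfbp3 was nearly silent in control MLECs and among the most abundant transcripts in tumor-associated MLECs. Its FPKM was 0.276, 0.711 and 0.748 in control replicates 1 to 3, 2475, 2354 and 3206 in GL261 replicates 1 to 3, and 1501, 3405 and 2823 in B16 replicates 1 to 3. The lowest tumor library, B16 replicate 1, was still far above every control library. The mean was 0.578 ± 0.263 FPKM (SD, n = 3) in control and 2627 ± 685 FPKM (SD, n = 6) in the tumor libraries, a difference of 10.67 on the log2(FPKM + 1) scale. Ranked by FPKM within a library, Igfbp3 stood at position 7012, 7963 and 7494 in the control libraries and between 27 and 72 in the tumor libraries.

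Igfbp7 was the most abundant binding protein in every library. Its FPKM was 1680, 1876 and 1546 in control replicates 1 to 3, 13844, 13833 and 4928 in the GL261 libraries and 5131, 9108 and 11875 in the B16 libraries. All 6 tumor libraries lay above all 3 control libraries, with GL261 replicate 3 and B16 replicate 1 the lowest of them. The mean rose from 1701 ± 166 FPKM (SD, n = 3) to 9786 ± 4073 FPKM (SD, n = 6), a log2 difference of 2.40 with a standard error of 0.32 and a 95% interval of 1.71 to 3.10 (limma adjusted p = 0.00109). Igfbp7 moved from positions 51 to 58 by FPKM in control libraries to positions 4 to 15 in tumor libraries. The exact two-sided permutation test over the 84 ways to divide the 9 libraries gave p = 0.0119, the smallest value it can give.

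Igfbp5, a binding protein that attaches to extracellular matrix, showed the largest tested difference of the set. Its FPKM was 28.6, 22.8 and 3.66 in control replicates 1 to 3, 546, 266 and 83.5 in the GL261 libraries and 227, 110 and 477 in the B16 libraries. The groups did not overlap, but the tumor libraries spread over 6.54-fold and the control libraries over 7.82-fold, control replicate 3 standing apart at the low end. The mean was 18.4 ± 13.1 FPKM (SD, n = 3) in control and 285 ± 190 FPKM (SD, n = 6) in the tumor libraries, giving a log2 difference of 3.95 with a standard error of 0.69 and a 95% interval of 2.46 to 5.45 (limma adjusted p = 0.00644). The exact permutation p was again 0.0119.

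The calls of Igfbp5 and Igfbp7 in tumor-associated against control MLECs held without any single library, with limma adjusted p of 0.00484 to 0.0262 for Igfbp5 and 0.000674 to 0.00856 for Igfbp7. With the number of genes detected per library as a covariate, which was higher in each tumor library than in each control library, the differences were 3.09 (limma adjusted p = 0.321) and 1.41 (limma adjusted p = 0.157), and neither was called. Over all 18 alternatives the adjusted p ranged from 0.00425 to 0.321 for Igfbp5 and from 0.000543 to 0.157 for Igfbp7.

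Igfbp4, the binding protein whose cleavage by PAPP-A frees IGFs, went the other way. Its FPKM was 502, 878 and 567 in control replicates 1 to 3, 237, 280 and 356 in the GL261 libraries and 428, 416 and 351 in the B16 libraries. Every tumor library lay below every control library. The mean was 649 ± 201 FPKM (SD, n = 3) in control and 345 ± 74.9 FPKM (SD, n = 6) in the tumor libraries, and the log2 difference of -0.90 had a standard error of 0.27 and a 95% interval of -1.49 to -0.31. It did not pass across all genes (limma adjusted p = 0.0915). The exact permutation p of this gene alone was 0.0119, the smallest value that test can give and not adjusted over genes. After quantile normalization the difference was -1.16 and passed (limma adjusted p = 0.0398), and over all 18 alternatives the adjusted p ranged from 0.0398 to 0.660.

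Igfbp6 and Igfbp2 were detected in few libraries. Igfbp6, which prefers IGF2, was at 104 FPKM in control replicate 2, 13.4 FPKM in GL261 replicate 1 and 6.72 FPKM in B16 replicate 3, and was listed at 0 in the other 6 libraries. The groups overlapped, and the log2 difference of -1.11 had a standard error of 1.45 (limma adjusted p = 0.735). Igfbp2 was at 30.2 FPKM in B16 replicate 3 and 0.247 FPKM in GL261 replicate 1 and was listed at 0 in the other 7 libraries, too few for the test.

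Summed over Igfbp2 to Igfbp7, the binding protein transcripts were 2212, 2881 and 2117 FPKM in control replicates 1 to 3 and between 7287 and 17115 FPKM in tumor libraries, or 0.324% to 0.416% and 0.960% to 2.04% of all FPKM of a library. These sums contain Igfbp3 and are given as a description. Igfbp7 made up a like share of the sum in both, 65.1% to 76.0% in control and 57.5% to 82.7% in tumor libraries. The second place changed hands. Igfbp4 held 22.7% to 30.5% of the sum in control libraries and 1.38% to 5.88% in tumor libraries, while Igfbp3 held at most 0.0353% and then 14.1% to 37.4%. Igfbp3 exceeded Igfbp4 in none of the 3 control libraries and in 6 of 6 tumor libraries, there by 3.51-fold to 10.5-fold. Igfbp5 stayed a minor share, 0.173% to 1.29% in control and 0.847% to 3.19% in tumor libraries, and its tumor range overlapped that of Igfbp4, which was the higher of the pair in 4 of 6 tumor libraries and in 3 of 3 control libraries.

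**Figure D2:**
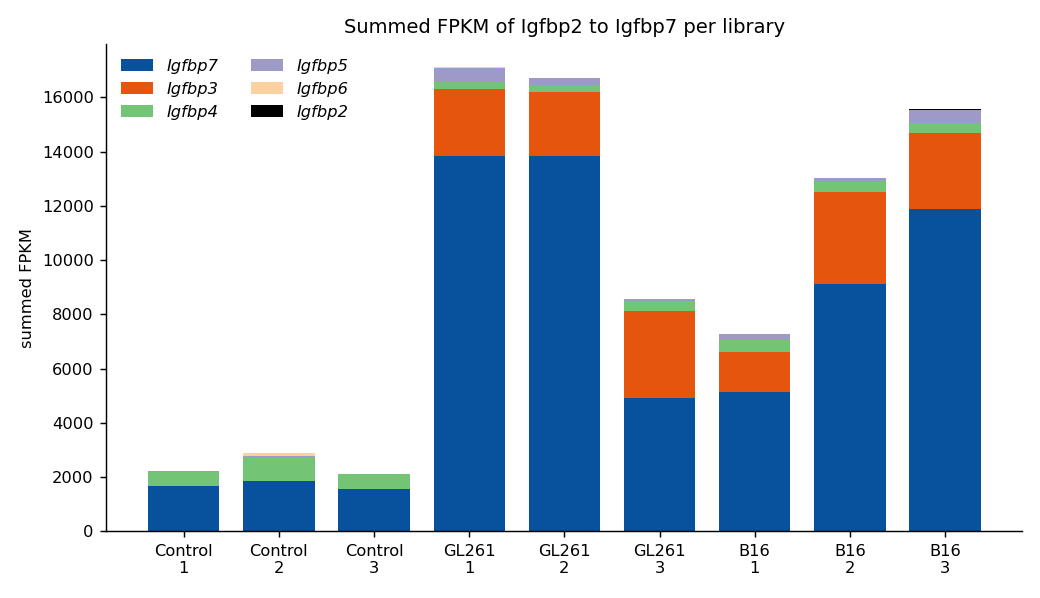
Summed FPKM of Igfbp2 to Igfbp7 in each of the 9 libraries, each bar being 1 library stacked by gene. Control bars stand between 2117 and 2881 FPKM and consist mostly of Igfbp7 and Igfbp4, while tumor bars stand between 7287 and 17115 FPKM with Igfbp3 in second place.

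The ligands were scarce. Igf1 was listed at 0 in 7 libraries and was at 1.88 FPKM in control replicate 2 and 2.09 FPKM in B16 replicate 3, too few for the test. Igf2 was at 3.14, 15.9 and 13.8 FPKM in control replicates 1 to 3, at 2.29, 0.0354 and 2.05 FPKM in the GL261 libraries and at 53.1, 18.1 and 0 FPKM in the B16 libraries. The 3 GL261 libraries lay below the controls, whereas B16 held both the highest and the lowest value of all 9 libraries. Tumor-associated minus control, Igf2 came to -1.11 on the log2 scale with a standard error of 1.23 (limma adjusted p = 0.674), and its sign turned with the genes detected as a covariate, to 1.34.

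H19, the imprinted non-coding RNA gene 72624 bp from Igf2, was at 21.9, 8.42 and 78.7 FPKM in control replicates 1 to 3, at 0.0642, 0 and 0 FPKM in the GL261 libraries and at 28.3, 12.8 and 0 FPKM in the B16 libraries. Like Igf2 it was lower in each GL261 library than in each control library and was listed at 0 in B16 replicate 3. Its log2 difference of -3.23 against control had a standard error of 1.24 and did not pass (limma adjusted p = 0.179).

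The receptors Igf1r and Igf2r, both at low FPKM, stood in opposite order in control and tumor libraries. Igf1r was at 5.47, 5.80 and 3.08 FPKM in control replicates 1 to 3, at 0.505, 1.04 and 0.895 FPKM in the GL261 libraries and at 1.53, 1.10 and 0.607 FPKM in the B16 libraries. Every tumor library lay below every control library, with means of 4.78 ± 1.48 FPKM (SD, n = 3) and 0.947 ± 0.371 FPKM (SD, n = 6). The log2 difference of -1.56 had a standard error of 0.59 and a 95% interval of -2.83 to -0.28, and did not pass across all genes (limma adjusted p = 0.174). Its exact permutation p alone was 0.0119, the smallest value that test can give and not adjusted over genes.

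Igf2r was listed at 0 in control replicates 1 and 3 and was at 0.534 FPKM in control replicate 2, at 4.05, 3.13 and 1.77 FPKM in the GL261 libraries and at 2.46, 6.09 and 3.83 FPKM in the B16 libraries. Every tumor library lay above every control library, and the mean was 3.55 ± 1.504 FPKM (SD, n = 6) in these tumor libraries. The log2 difference was 1.92, given without a test because Igf2r passed the filter through the tumor libraries alone. Airn, the antisense RNA gene that overlaps Igf2r by 28354 bp, was at 19.9 FPKM in control replicate 1 and 0 FPKM in the other control libraries, at 13.8, 0 and 5.00 FPKM in the GL261 libraries and at 68.6, 8.22 and 10.2 FPKM in the B16 libraries. The sources used here do not say whether fragments were counted by strand, so fragments of Igf2r and Airn in the overlap cannot be told apart.

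Within libraries, Igf2r exceeded Igf1r in 0 of 3 control libraries and in 6 of 6 tumor libraries, with a ratio of FPKM of 1.61 to 8.03 and a median of 4.27 in the latter. This order is a description, since both levels were low and Igf2r passed the filter through the tumor libraries alone. The insulin receptor Insr, which forms hybrid receptors with IGF1R, was the highest of the 3 receptor genes in each tumor library. Insr was at 0, 10.4 and 0.541 FPKM in control replicates 1 to 3, at 25.4, 29.0 and 17.9 FPKM in the GL261 libraries and at 14.8, 22.9 and 18.8 FPKM in the B16 libraries. All tumor libraries lay above all control libraries, and Insr rose by 3.08 on the log2 scale with a standard error of 0.76 (limma adjusted p = 0.0409). This call was lost when any 1 library other than control replicate 2 was left out, and the adjusted p ranged from 0.00380 to 0.633 over 18 alternatives. Only 1 control library reached 1 FPKM for Insr, so its entry into the test leaned on the tumor libraries.

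**Figure D3:**
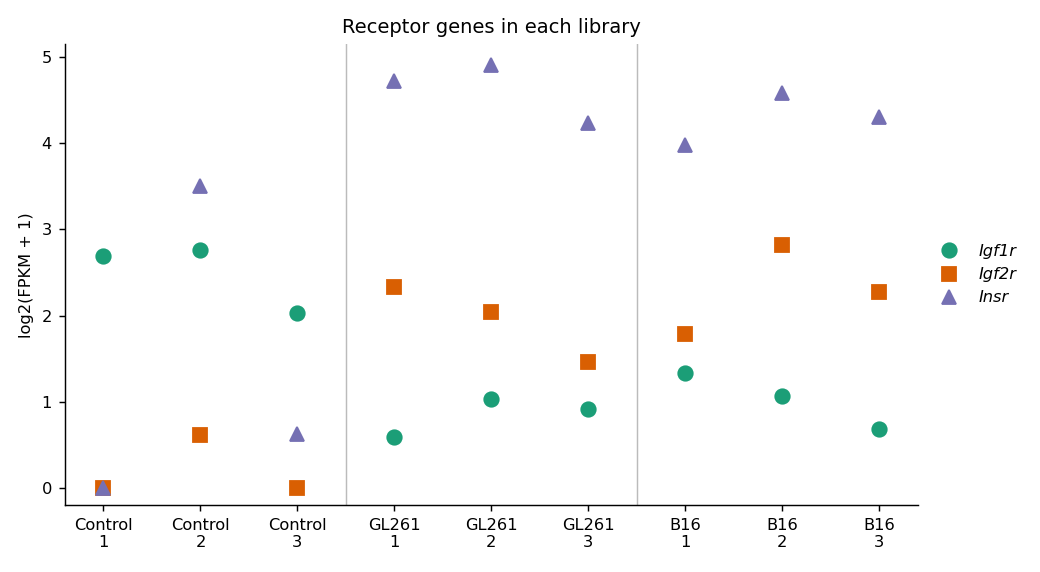
Levels of Igf1r (green circles), Igf2r (orange squares) and Insr (purple triangles) as log2(FPKM + 1) in each of the 9 libraries. Igf1r lay above Igf2r in the 3 control libraries and below it in the 6 tumor libraries, where Insr lay above both.

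Taken by tumor type, each compared with the same 3 control libraries, the pattern of the binding proteins was present in both. In GL261 against control, 2 of the 6 genes (again without Igf2r) were called, Igfbp5 and Igfbp7, where 3.49% of all genes were, and the groups did not overlap for 5 of the 6, where they did not for 22.5% of all genes tested. In B16 against control, the called genes were also Igfbp5 and Igfbp7, where 2.11% of all genes were, and the groups did not overlap for 4 of the 6, where they did not for 17.2% of all genes tested. With 3 libraries a group, the smallest p of an exact permutation test is 0.1.

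Igfbp7 differed from control by 2.53 with a standard error of 0.38 in GL261 (limma adjusted p = 0.00489) and by 2.28 with a standard error of 0.38 in B16 (limma adjusted p = 0.0108). Igfbp5 differed by 3.96 with a standard error of 0.84 in GL261 (limma adjusted p = 0.0259) and by 3.95 with a standard error of 0.84 in B16 (limma adjusted p = 0.0351). These calls rested on single libraries more than that of the joined tumor group. In GL261, Igfbp5 was no longer called without control replicate 3 (limma adjusted p = 0.0654), GL261 replicate 1 (0.124) or GL261 replicate 2 (0.105). In B16, Igfbp5 was no longer called without control replicate 3 (limma adjusted p = 0.0770), GL261 replicate 2 (0.0594) or B16 replicates 1 (0.100), 2 (0.0596) and 3 (0.147), and Igfbp7 was no longer called without B16 replicate 2 (0.0579) or B16 replicate 3 (0.0613). Over the 18 alternatives the adjusted p of Igfbp5 ranged from 0.0170 to 0.713 in GL261 and from 0.0282 to 0.341 in B16, and that of Igfbp7 from 0.000742 to 0.612 and from 0.00288 to 0.158.

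Igfbp4 was lower than in control by 1.13 on the log2 scale with a standard error of 0.28 in GL261, just outside the threshold (limma adjusted p = 0.0533), and by 0.67 in B16 (limma adjusted p = 0.301). The GL261 value passed under 4 of the 18 alternatives, and its adjusted p ranged from 0.0240 to 0.598 over them. The differences of Igf1r were -1.65 in GL261 (limma adjusted p = 0.245) and -1.46 in B16 (limma adjusted p = 0.344). Those of Igf2r, given without a test, were 1.74 and 2.09.

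**Figure D4:**
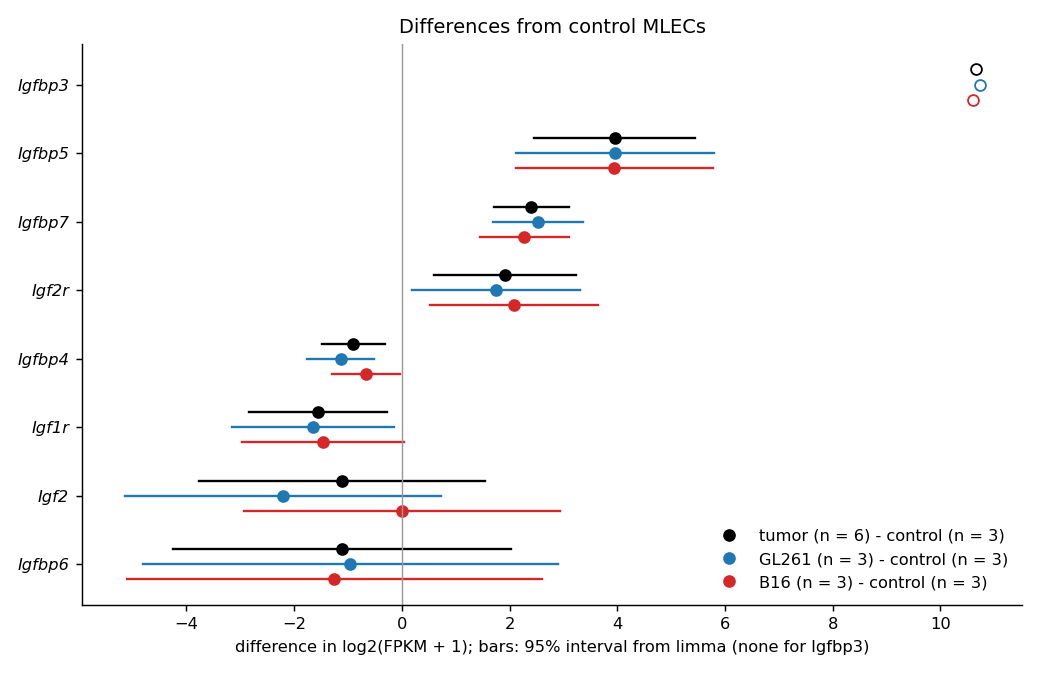
Difference from control in log2(FPKM + 1) for the joined tumor group (black, n = 6), GL261 (blue, n = 3) and B16 (red, n = 3), each against the same 3 control libraries, with 95% intervals from limma. Igfbp3 is drawn as open circles without an interval because it was chosen by this difference. The intervals of Igf2r are drawn but are not to be read as a test, since Igf2r passed the filter through the tumor libraries alone. Igfbp5 and Igfbp7 are the genes whose differences passed the threshold.

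Between the tumor types, 0 of the 8 tested genes, Igfbp3 included, differed by limma, with 0 at an unadjusted p under 0.05 and a limma adjusted p of 1 for each, where 0.0100% of all genes were called. GL261 minus B16 was 0.12 for Igfbp3 with a 95% interval of -0.66 to 0.91, 0.26 for Igfbp7 (-0.58 to 1.09), 0.01 for Igfbp5 (-1.82 to 1.84) and -0.47 for Igfbp4 (-1.09 to 0.16). For the receptors it was -0.18 for Igf1r (-1.69 to 1.32) and -0.35 for Igf2r (-1.91 to 1.21). The widest intervals belonged to Igf2, at -2.21 (-5.15 to 0.72), and Igfbp6, at 0.30 (-3.55 to 4.15). Each interval held differences on both sides of 0, so the absence of a call with 3 libraries a group does not show equal levels.

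Beyond the 10 genes, 58 genes of the IGF system were followed, of which 30 passed the filter and 9 were listed at 0 in all libraries. In tumor-associated against control MLECs 3 of the 30 were called, 2 higher and 1 lower, where 3.93% of all genes tested were (2.90% higher and 1.02% lower), and the median difference of the 30 was 0.16, close to the 0.20 of all genes. They were Stc1, Ctsd and Insr. Stc1 and Insr each reached 1 FPKM in 1 control library and in all 6 tumor libraries. Both thus needed tumor libraries to pass the filter, so their entry into the test already favoured a rise. Htra3, also among the 30 and not called, entered through tumor libraries alone. The number called higher is therefore given as a description. The shares of all genes tested include such genes too.

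Among 16 genes that govern how much free ligand there is (carriers, proteases of the binding proteins and their inhibitors, and scavenger receptors), 5 were tested and 2 called. Stc1, stanniocalcin-1, an inhibitor of PAPP-A, was at 0, 0 and 1.64 FPKM in control replicates 1 to 3, between 18.4 and 30.8 FPKM in the GL261 libraries and at 262, 72.0 and 84.2 FPKM in the B16 libraries. The groups did not overlap, and Stc1 rose by 5.24 with a standard error of 0.83 (limma adjusted p = 0.00336). This call was lost with the genes detected as a covariate, where the difference was 6.86 (limma adjusted p = 0.0542), and passed under the other 17 of 18 alternatives. Stc1, Mmp2 and H19 are also among genes that the study had picked on these libraries. Pappa, which encodes PAPP-A itself, was at 0.891, 0.287 and 0.229 FPKM in control replicates 1 to 3 and was listed at 0 in all 6 tumor libraries, below the filter of the test.

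Ctsd, the lysosomal protease cathepsin D, which can cut binding proteins, was at 490, 1017 and 598 FPKM in control replicates 1 to 3, at 164, 133 and 139 FPKM in the GL261 libraries and at 424, 199 and 187 FPKM in the B16 libraries. Its level fell by 1.81 on the log2 scale with a standard error of 0.38 (limma adjusted p = 0.0176), a call lost without control replicate 2 (-1.502, limma adjusted p = 0.0684) and held under 14 of 18 alternatives, whose adjusted p ranged from 0.00293 to 0.442. Mmp2, a matrix metalloproteinase, had a log2 difference of 2.55 with a standard error of 1.35 and overlapping groups (limma adjusted p = 0.331). Tmem219, described as a receptor of IGFBP3, ranged from 1.17 to 138 FPKM in control and from 1.03 to 51.1 FPKM in tumor libraries, a log2 difference of 0.11 with a standard error of 1.23 (limma adjusted p = 0.974).

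Of 29 genes of the insulin and IGF receptor pathway (insulin receptor family, adaptors, PI3-kinase, AKT, FOXO and mTOR), 20 were tested, and 1, Insr, was called. The median difference of the 20 was -0.13. The translation repressor gene Eif4ebp1 had a log2 difference of 0.70 with a standard error of 0.49 (limma adjusted p = 0.461), and the kinase gene Akt1 one of -0.81 with a standard error of 0.52 (limma adjusted p = 0.420). Of 6 genes for IGF2 mRNA-binding proteins and the imprinted Igf2 locus, H19 alone was tested and was not called. Igf2bp3 stayed at or below 1.03 FPKM in all libraries. Of 7 genes for the matrix proteins of the CCN family and endocan, which share a domain with the binding proteins, 4 were tested and 0 called by limma. Ctgf had a log2 difference of 1.44 with a standard error of 0.61 (limma adjusted p = 0.225), and Cyr61 one of -0.29 with a standard error of 0.49 (limma adjusted p = 0.797).

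The genes whose centred log2 profile over the 9 libraries lay closest to that of Igfbp3, of 9954 others compared by Euclidean distance, were Ly6c1 (distance 3.33), Tmem252 (4.71), Fam167b (5.28), Gsto1 (5.95) and Ms4a6d (6.31). Each was listed at 0 or below 1 FPKM in all 3 control libraries. Ly6c1, a surface protein gene used as a marker of capillary and arterial blood endothelium, was at 4375, 3720 and 1886 FPKM in the GL261 libraries and at 788, 393 and 873 FPKM in the B16 libraries. In the same list Igfbp5 stood at position 114, Igfbp7 at 382 and Igf2r at 635, while Igfbp4 (7906), Igf1r (9045), Igf2 (9230) and Igfbp6 (9421) stood near the far end. These distances describe 9 libraries in 3 groups and hold no test.

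Markers of lymphatic endothelium and of other cells were read in the same libraries. The defining lymphatic transcript Lyve1 was between 974 and 1705 FPKM in control and between 628 and 1895 FPKM in tumor libraries, and Prox1 was between 20.9 and 42.2 FPKM in control and between 1.87 and 16.5 FPKM in tumor libraries. Over 11 lymphatic markers, of which 10 were tested, the summed FPKM was 13698 to 17408 in control and 1122 to 6780 in tumor libraries, with 5 called lower, where 1.02% of all genes tested were, and 8 lower without overlap, where 10.5% did not overlap in either direction. In control libraries this sum was mostly the chemokine gene Ccl21c, at 7384 to 13803 FPKM, and Lyve1 overlapped between the groups. Over 11 blood endothelial markers the summed FPKM was 2370 to 3188 in control and 4810 to 8251 in tumor libraries. Of the 11, 7 were called higher, where 2.90% of all genes tested were. Among these 11, Flt1 was at 0.0997, 0.856 and 0.544 FPKM in control replicates 1 to 3 and at 49.0 to 156 FPKM in tumor libraries. Its entry into the test thus already required a difference. Other markers of the blood endothelial list did not rise. Podxl, Sox17 and Kdr overlapped between the groups. Cldn5 was lower in each GL261 library (698 to 890 FPKM) than in each control library (1497 to 1702 FPKM), while B16 overlapped the controls. Plvap and Cldn5 made up most of the blood endothelial sum of control libraries. Both lists were chosen with earlier results of these data known, so their counts are given as a description. The 5 pan-endothelial markers summed to 367 to 512 and 484 to 714 FPKM, and 0 of them was called by limma. The part of lymphatic and blood endothelial identity in the levels of Igfbp3, Igfbp5, Igfbp7 and Igfbp4 was not tested.

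Melanocyte markers were at or near 0, and glial markers were low in control and GL261 libraries but higher in B16 libraries, mostly through S100b. Mural and leukocyte markers were high in single libraries. The markers Tyr, Mlana, Tyrp1, Mitf, Gfap and Sox2 were listed at 0 in all 9 libraries, and 7 melanocyte markers summed to at most 4.07 FPKM in any library. Glial markers summed to at most 4.69 FPKM in control and GL261 libraries and to 28.2 to 45.6 FPKM in B16 libraries, of which S100b was 25.3 to 37.0 FPKM. The 7 fibroblast markers summed to 16.2 to 49.0 FPKM in control and at most 3.85 FPKM in tumor libraries, with Lum and Fbln1 listed at 0 throughout. Mural cell markers summed to 169 to 629 in control libraries and 11.1 to 121 FPKM in tumor libraries, the highest being control replicate 1 with Acta2 at 505 FPKM. Leukocyte markers summed to 43.8 to 192 in control libraries and 19.9 to 1310 FPKM in tumor libraries, the highest being GL261 replicate 2 with Cd74 at 961 FPKM, and Ptprc, the gene of CD45, was listed at 0 in all. The summed fibroblast and mural markers stood lower in every tumor library than in every control library, as Igfbp4 did. The fibroblast sum of control libraries was mostly Dcn, at 15.7 to 44.9 FPKM. In control replicates 2 and 3 the mural sum was almost wholly Kcnj8, with Pdgfrb, Rgs5, Acta2, Cspg4 and Notch3 listed at 0. Kcnj8 overlapped between the groups, at 59.9 to 195 FPKM in control libraries and 6.56 to 116 FPKM in tumor ones. Whether fibroblasts or mural cells were present, and their part in the level of Igfbp4, was not tested.

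**Figure D5:**
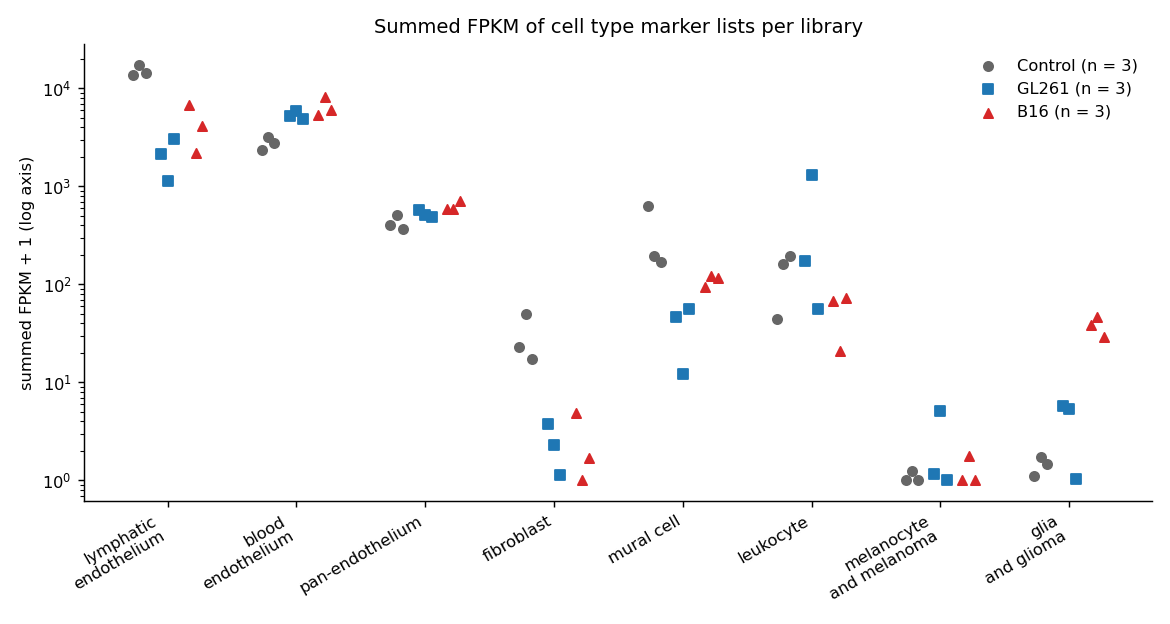
Summed FPKM + 1 of 8 lists of cell type markers in each library, on a log axis, for control (grey circles), GL261 (blue squares) and B16 (red triangles). Lymphatic, fibroblast and mural sums were lower and blood endothelial sums higher in all 6 tumor libraries, while leukocyte sums overlapped between the groups.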

How the data were processed

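RNA-seq of MLECs was compared in 3 control, 3 GL261 and 3 B16 libraries of 10 cells each, made with a Smart-seq2 type protocol. The authors aligned paired reads to mm9 with TopHat2 2.0.12 and deposited 1 FPKM per gene symbol and library from Cufflinks 2.2.1, per the submitters' processing notes, without further scaling between libraries; read counts were not used, so the depth of single values is unknown here. The labels gave each library its group and replicate number.

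From the deposited FPKM, log2(FPKM + 1) was tested with limma 3.58.1 in R 4.3.3 (eBayes with a trend) on 9955 of 24321 genes that reached 1 FPKM in 3 or more libraries. The threshold was 0.05 after the adjustment of Benjamini and Hochberg. B16 and GL261 were joined against control, and a fit of all 3 groups gave the single comparisons. Single genes were also compared by two-sided exact permutation tests. The scripts were checked on simulated data. Summaries used pandas 2.3.3 and numpy 2.4.6 in Python 3.11.15, and figures matplotlib 3.10.9.

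The members, the pathway lists and the marker lists were chosen with earlier results of these data known. Named genes are the 10 members, every pathway gene past the threshold against control and up to 2 others per list with the highest mean FPKM, and the 5 profiles nearest to that of Igfbp3; Igfbp1, Pappa, Airn and the markers were named after their values were seen. Alternatives were a pseudocount of 0.1, rescaling to a sum of 1000000, quantile normalization, no filter, a mean FPKM of at least 10, no trend, library weights, the replicate number as a block, the genes detected as a covariate, and leaving out each library.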

Additional observations from a re-analysis of the deposited data

Results flagged for a closer look

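Igfbp2 was at 30.2 FPKM in B16 replicate 3, the highest of the 6 tumor libraries. On the log2(FPKM + 1) scale, its gap to the next value was 0.936 of the whole range, above the critical value of 0.625 for 6 samples. Igf1 was at 2.09 FPKM in the same library, and the gap was 1 times the whole range, since the other 5 tumor libraries were listed at 0. Chance alone flags about 1 in 20 groups, and genes that are listed at 0 in most libraries are flagged easily. B16 replicate 3 was also the library in which Igf2 and H19 were listed at 0 while the other B16 libraries held both.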

How the results depend on the processing

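The limits of these data are few cells per library, no read counts, and a number of detected genes that follows tumor status. Of 391 genes called in tumor-associated against control MLECs (289 higher, 102 lower), 254 were called without a filter on low values, 231 with library weights and 13 with the genes detected as a covariate, and 245 to 444 when 1 library was left out. Quantile normalization called 383, of which 238 were higher and 145 lower. The 2 called members became 0 with the covariate, where Igf2 reversed to 1.34, and stayed 2 when any library was left out.

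In GL261 against control, 347 genes became 218 without a filter and 6 with the covariate, and 105 to 363 with 1 library left out, and the 2 called members became 1 without a filter, 0 with no trend and 0 with the covariate, and 1 to 2 with 1 library left out. In B16 against control, 210 genes became 135 without a filter, 131 with library weights and 17 with the covariate, and 69 to 274 with 1 library left out, and the 2 called members became 1 with a pseudocount of 0.1 or library weights, 0 without a filter, with no trend or with the covariate, and 0 to 2 with 1 library left out.

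In GL261 against B16, 1 gene became 2 with quantile normalization, 6 with no trend and 20 with library weights, and 1 to 4 with 1 library left out. Signs near 0 turned there. Igfbp3 became -0.0403 after rescaling, -0.0370 with library weights, -0.0379 with the covariate and -0.0666 after quantile normalization, and ran from -0.22 to 0.37 with 1 library left out. Igfbp5 became -0.16 after rescaling, -0.0467 after quantile normalization and -0.77 with the covariate (-0.61 to 0.73 with 1 library left out). Igfbp6 became -2.46 with the covariate (-0.19 to 0.94), and Igfbp7 became -0.0711 after quantile normalization and -0.51 with the covariate (-0.0844 to 0.75). The cause of these changes was not tested.

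The replicate numbers do not pair the libraries, since same-numbered libraries had correlations of deviations of -0.033 to 0.044 and did not all correlate best with their own number. With the replicate block, 303 genes were called in tumor-associated, 230 in GL261 and 146 in B16 MLECs against control and 1 between the tumors, and Igfbp5 and Igfbp7 remained the called members in all 3 comparisons with control.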
